A study of Mus musculus with 2 samples.

Results

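Lymphatic endothelial cells were described in droplet RNA libraries made from endothelial cells sorted out of mouse liver, as the barcodes (the droplets that each stand for a cell) that carried lymphatic transcripts. They were chosen by their own counts. A barcode needed at least 500 UMIs (unique molecular identifiers, each counted as a molecule of RNA), at least 300 genes and less than 20% mitochondrial UMIs. It also needed at least 3 UMIs of the endothelial genes Pecam1, Cdh5, Egfl7 and Ptprb together, and less than 0.3% of its UMIs from the sinusoidal genes Stab1, Stab2, Clec4g and Dnase1l3. Finally, it needed at least 5 UMIs of Mmrn1, Pdpn and Prox1, with at least 2 of these 3 genes detected. In all, 68 of 13969 barcodes met these conditions, 64 in the cirrhosis library and 4 in the control library, and they are called members here. The mice of both libraries were 16-week-old C57BL/6 animals with Cdh5-Cre, a recombinase under an endothelial promoter, and the mTmG reporter on both alleles, which marks a recombined cell by membrane GFP. Cirrhosis was induced by carbon tetrachloride (CCl4) inhaled over 12 weeks, and the other library is labelled only as control. Livers of 3 mice were pooled for each library, hepatocytes were removed by centrifugation, and viable GFP-positive cells were sorted and loaded on the 10x 3′ v3 system. With 1 library per group no test between groups or cell classes was possible, so all intervals below are 95% intervals for counting error only.

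Lymphatic vessels drain tissue fluid, fat and immune cells back to the blood. They begin as blind-ended capillaries with loose, button-like junctions and continue as collecting vessels with valves and a tighter lining. The transcription factor Prox1 sets and keeps lymphatic identity, working with Nr2f2 and Sox18, and the receptor Flt4 (VEGFR3) receives growth signals from Vegfc and Vegfd. Capillary cells release the chemokine Ccl21a, which guides dendritic cells into the vessel, and carry Lyve1, a hyaluronan receptor. In the liver, lymphatic vessels run in the portal tracts, whereas the sinusoidal lining shares Lyve1, Flt4 and Stab1 with them, so that these genes alone do not tell the cell types apart.

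The control library held 5642 barcodes with a median of 6864.5 UMIs, and the cirrhosis library 8327 with a median of 8537, with 17 barcode sequences found in both. Members made up 64 of 5441 endothelial barcodes in cirrhosis, or 1.18% (0.907 to 1.5, exact Clopper-Pearson), and 4 of 4409 in control, or 0.0907% (0.0247 to 0.232). Among endothelial barcodes under the sinusoidal limit alone, the shares were 5.36% (4.15 to 6.79) of 1195 and 1.03% (0.282 to 2.63) of 387. The endothelial barcodes were deeper in the cirrhosis library, with a median of 10701 against 7493 UMIs. The part of this depth, of the sort and of the pool of mice in the shares was not tested. The 64 cirrhosis members had between 4237 and 63671 UMIs, with a median of 10354. They were set beside 4609 other endothelial barcodes of the same library (median 10443 UMIs), each with at most 1% of UMIs from any one other cell type's markers. These comprised 3936 sinusoidal barcodes and 673 barcodes below the sinusoidal limit, called other-vessel barcodes (median 12381 UMIs). Median mitochondrial shares were 5.44% in members and 7.55% in other endothelial barcodes.

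**Figure D1:**
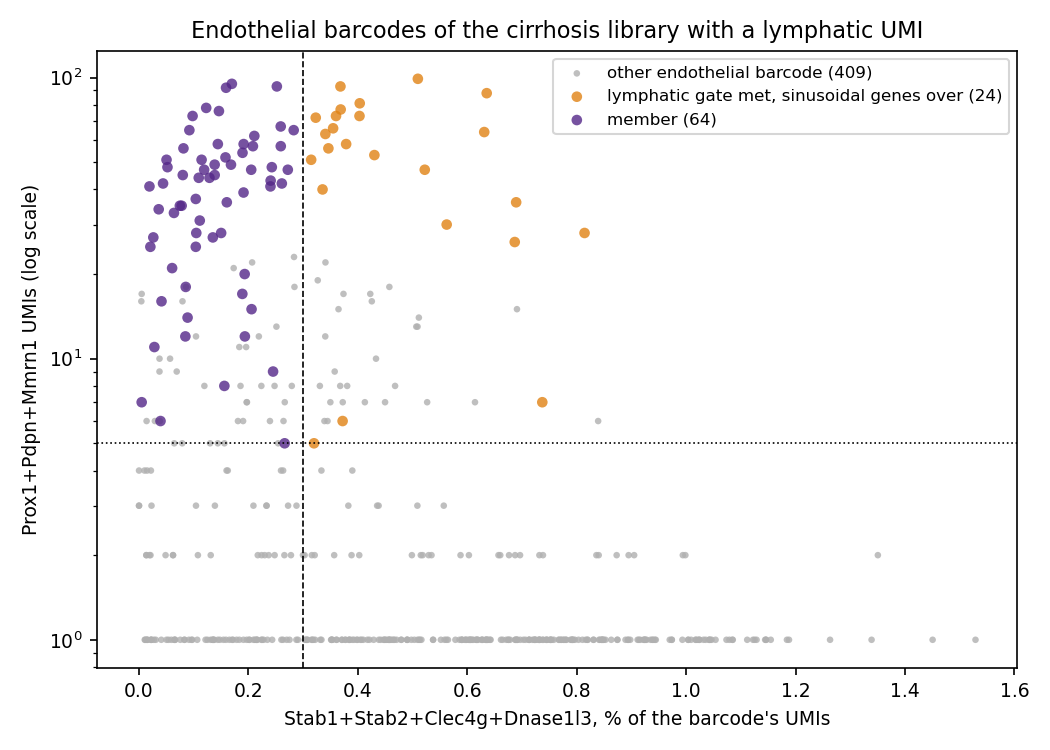
Summed UMIs of Prox1, Pdpn and Mmrn1 (y axis, log scale) against the percentage of UMIs from the 4 sinusoidal genes (x axis) for endothelial barcodes of the cirrhosis library with at least 1 lymphatic UMI; the lines mark the limits of 5 UMIs and 0.3%. The 64 members lie at the upper left, and 24 barcodes that met the lymphatic condition lie to the right of the sinusoidal limit.

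The sinusoidal limit cut through the lymphatic barcodes. There were 15 barcodes with sinusoidal genes at 0.3 to 0.5% and 9 at 0.5% or more that met the lymphatic condition. Their Mmrn1 levels were 2702 and 1864 CPM (UMIs of a gene per 1000000 UMIs summed over a class), and their Ccl21a levels were 3799 and 2420 CPM. The 15 members just inside the limit, at 0.2 to 0.3%, had 2303 CPM of Mmrn1 and 2220 CPM of Ccl21a. Of the barcodes past the limit, 12 of the 15 at 0.3 to 0.5% and all 9 at 0.5% or more were among the other endothelial barcodes. Lymphatic transcripts were therefore not at 0 in that class. At the other limit, only 3 members had 5 to 7 lymphatic UMIs. Those 3 had 8.82 CPM of Mmrn1 and 4835 CPM of Alb (albumin, a hepatocyte product), and the 1 barcode with 3 or 4 lymphatic UMIs had no Mmrn1. Another 38 barcodes had at least 5 UMIs of a single lymphatic gene, with a median of 27740 UMIs, 312 CPM of Prox1, 26.7 CPM of Mmrn1 and 3780 CPM of Alb. Prox1 is also a hepatocyte and biliary transcript.

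The genes of the rule are given as a description, since they chose the members. All 3 lymphatic genes were found in 41 of the 64 members, Prox1 with Mmrn1 in 17, Prox1 with Pdpn in 4, and Pdpn with Mmrn1 in 2. Mmrn1, a secreted multimerin of lymphatic endothelium, stood at 2347 CPM (2249 to 2448) in the members, 21.5 in other endothelial and 4.19 in other-vessel barcodes. Per member it ranged from 0 to 9213 CPM with a median of 3244. Prox1 was at 381 CPM (342 to 423) against 9.37 and 9.27, and Pdpn (podoplanin, a membrane mucin) at 119 CPM (97.5 to 143) against 0.808 and 0.441. Of the endothelial genes, Pecam1 was at 617 CPM in members and 662 in other endothelial barcodes, Egfl7 at 960 and 1362, Cdh5 at 528 and 1013, and Ptprb at 532 and 2511. The sinusoidal genes were unequal. Stab1, a scavenger receptor that lymphatic endothelium also uses, was at 897 CPM against 988 in other endothelial and 297 in other-vessel barcodes. Stab2 was at 136 CPM against 1346, Clec4g at 217 against 2299 and Dnase1l3 at 139 against 1708.

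The lymphatic label was checked with markers outside the rule. Flt4 was detected in 62 of the 64 members, Nr2f2 in 64, Sox18 in 57, Reln (an extracellular glycoprotein released by lymphatic endothelium) in 53, Lyve1 in 51 and Ccl21a in 30. Flt4, Nr2f2 and Sox18 were also detected in 3824, 3852 and 3222 of the 3936 sinusoidal barcodes. In the 673 other-vessel barcodes they were detected in 517, 566 and 470, so their detection does not set the members apart. Reln, Lyve1 and Ccl21a were detected in 70, 2301 and 44 sinusoidal and in 7, 122 and 9 other-vessel barcodes. After each barcode was thinned to 3000 UMIs, a depth that all 64 members and all but 163 of the other endothelial barcodes had, Reln was found in 67.2% of members, 0.789% of sinusoidal and 0.156% of other-vessel barcodes. T and NK barcodes, which should lack these genes and had a median of 5724 UMIs, gave the background. None of the 207 deep enough held Reln after thinning, and Lyve1 was found in 0.966% of them against 67.2% of members. Without thinning, Reln was found in 82.8% of members. The reporter transcript eGFP was at 2532 CPM in members, 1446 in other endothelial and 144 in T and NK barcodes.

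A minority of members held RNA of other cell types. In 12 of the 64, more than 0.5% of UMIs came from the markers of some other type; hepatocyte markers passed 1% in 7 members, cholangiocyte (bile duct) markers passed 1% in 5, and neutrophil markers reached 19.8% in 1. All 64 members held 917810 UMIs and the other 52 held 606837, so the 12 weigh more in the sums than their number. The 4 members without Mmrn1 had from 13 to 116 UMIs of Krt18 and from 7 to 40 of Epcam, both epithelial genes, and no Ccl21a. A further member with 1 UMI of Mmrn1 had 40 of Krt18 and 19 of Epcam. Another with 1 UMI of Mmrn1 had 17 and 7, and both lacked Ccl21a. Over the whole lists, all 6 hepatocyte and all 6 cholangiocyte markers were detected in the members. Their summed shares were 0.538% and 0.514% of UMIs against 0.103% and 0.0165% in other endothelial barcodes. Per member the hepatocyte sum ran from 0 to 2.98% and the cholangiocyte sum from 0 to 4.11%. Without the 12 members these shares were 0.0982% and 0.0237%, and levels in the other 52 members are given below for the genes named with their own values whose 2-fold call differed there, and for some others. Those 52 still held 1 member without Mmrn1, with cholangiocyte markers at 0.401%. Of 8 fibroblast and stellate markers, Col1a1 and Pdgfrb had no UMI in any member, and the list made up 0.0218% of UMIs against 0.00711% in other endothelial barcodes, or 0.00692% in the 52. The 6 neutrophil markers made up 0.30% of UMIs against 0.00156%, and 0.000330% in the 52. The part of this other RNA in the results below was not tested beyond the values given for the 52. Among 8 Kupffer cell and monocyte markers, all were detected (0.0434% against 0.0628%). The 6 B cell markers, of which Cd79a was at 0, made up 0.00512% against 0.0110%. Gzma was at 0 among 8 T and NK markers (0.00676% against 0.00939%), and Siglech and Xcr1 among 6 dendritic cell markers (0.00185% against 0.0109%). Upk3b, Upk1b, Lrrn4, Wt1 and Muc16 had no UMI among 6 mesothelial markers, and the 4 globin genes had none among 5 erythroid markers.

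**Figure D2:**
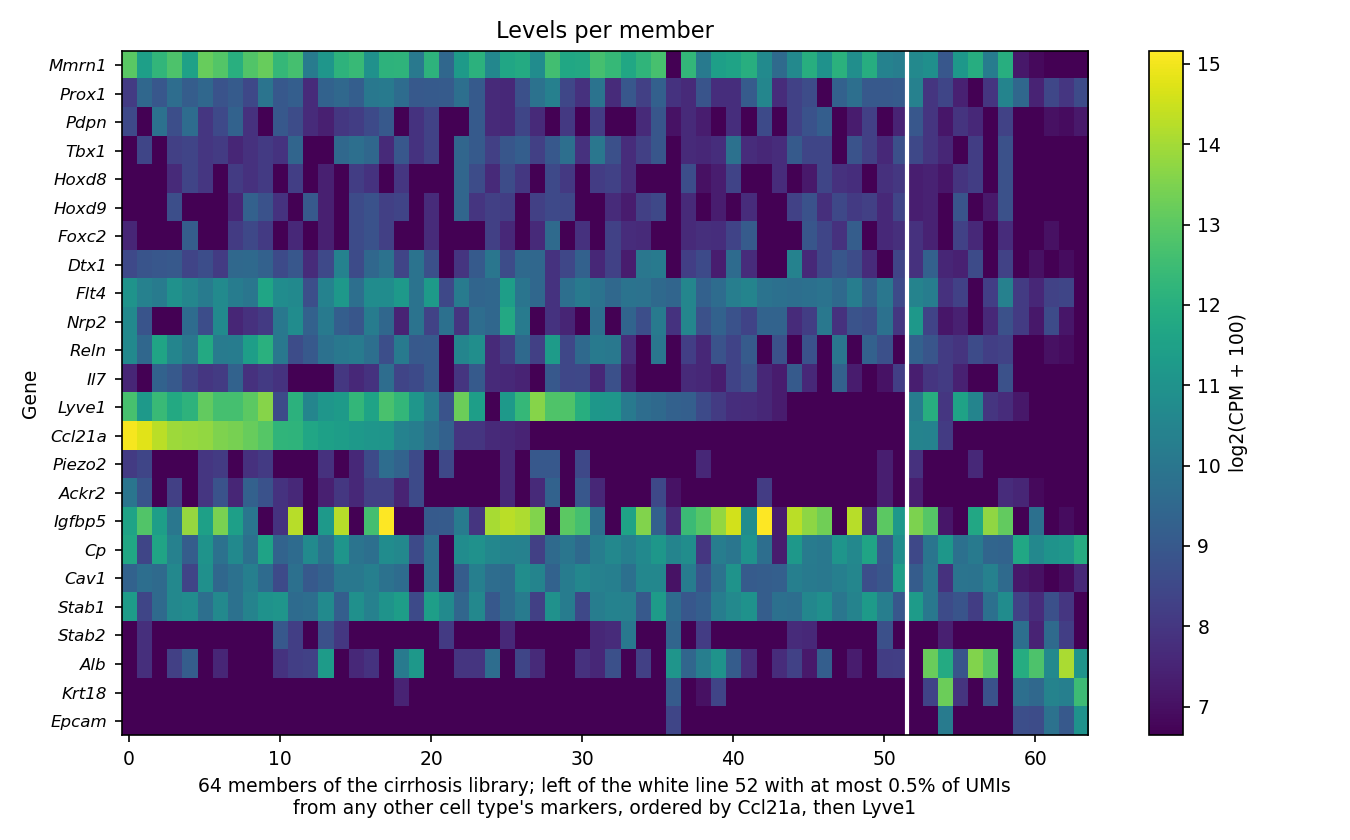
Level of 24 genes (rows) in each of the 64 members of the cirrhosis library (columns), as log2(CPM + 100). The 52 members with at most 0.5% of UMIs from any other cell type's markers stand left of the white line, ordered by Ccl21a; the 12 to its right include the members with high Alb, Krt18 or Epcam.

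The 4 control members fell into 2 kinds. Members 2 and 3 had 52 and 77 UMIs of Mmrn1, 94 and 449 of Ccl21a, 21 and 56 of Lyve1 and 12 and 19 of Reln. Members 1 and 4 had no UMI of Mmrn1 or Ccl21a and 0 and 1 UMI of Reln, but 39 and 23 of Krt18 and 15 and 19 of Epcam. With 2 barcodes of each kind the control members were not compared with those of cirrhosis any further.

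Across the genes with at least 50 CPM in either class, 584 of 4513 (12.9%) were at least 2-fold higher in members than in other endothelial barcodes and 562 (12.5%) at least 2-fold lower. Against other-vessel barcodes 535 of 4437 (12.1%) were higher and 415 (9.35%) lower. Gene lists were read at 20 CPM in either class with a UMI in both, here called measured. On that scale 12.9% of 7923 genes were higher and 11.4% lower than in other endothelial barcodes, with a median log2 ratio of -0.07. Against other-vessel barcodes 11% of 7999 were higher and 10.1% lower, with a median of -0.08. "Higher" and "lower" in the counts below mean at least 2-fold in these sums, and the shares just given are the background for each count.

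**Figure D3:**
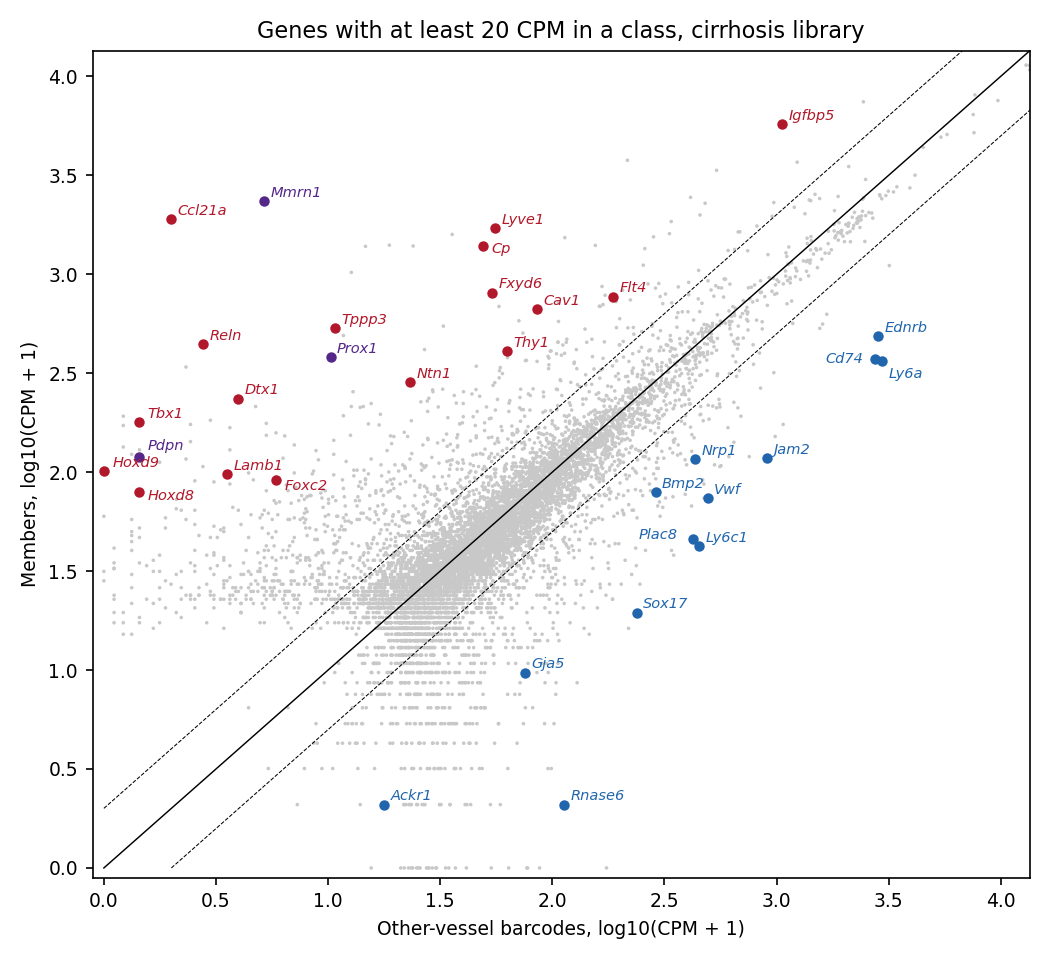
Level in the members (y axis) against other-vessel barcodes (x axis) of the cirrhosis library, as log10(CPM + 1), for genes with at least 20 CPM in a class. The solid line marks equal levels and the dashed lines a 2-fold difference; rule genes are violet, Ccl21a, Lyve1, Reln and Tbx1 lie in the upper left, and Sox17, Ly6c1 and Vwf in the lower right.

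The lymphatic transcription factors differed by gene. Tbx1, Hoxd8, Foxc2, Foxc1 and Hhex were higher in members than in other endothelial barcodes, Nr2f2 and Sox18 were within 2-fold, and Maf and Meis1 were lower. Of the 13 listed, 12 were measured, and 5 were higher and 2 lower than in other endothelial barcodes, with a median log2 ratio of 0.81; against other-vessel barcodes 4 were higher and 1 lower, with a median of 0.58. Tbx1, a T-box factor needed for lymphatic vessel growth, was at 179 CPM (152 to 208) in members, 1.56 in other endothelial and 0.441 in other-vessel barcodes. It was detected in 50 of 64 members, with a median of 175 and a highest level of 944 CPM per member. Foxc2, a forkhead factor of lymphatic valves, was at 90.4 CPM against 2.96 and 4.85, a log2 ratio of 4.93 (4.53 to 5.33) to other endothelial barcodes. Its relative Foxc1 was at 62.1 CPM against 8.82 and 15.2. Hhex, a homeobox factor, was at 165 CPM against 70.9 and 83.5, but at 114 CPM in the 52 members with little RNA of other types, which is less than 2-fold above.
Nr2f2 was detected in all 64 members at 635 CPM, against 780 in other endothelial and 647 in other-vessel barcodes, a log2 ratio of -0.03 (-0.15 to 0.10) to the latter. Sox18 was at 242 CPM against 224 and 174. Gata2 (61.0 CPM against 41.2 and 38.0) and Nfatc1 (92.6 against 47.0 and 67.1), both described in valve or lymphatic development, stayed within 2-fold, but Nfatc1 was at 110 CPM in the 52 members, over 2-fold above other endothelial barcodes. Maf was at 673 CPM against 2119 in other endothelial barcodes, most of which are sinusoidal, and 653 in other-vessel barcodes. Meis1 was at 13.1 CPM against 58.7 and 42.4.

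Neighbouring Hoxd genes on chromosome 2 were also higher. Hoxd8, which acts with Prox1 in lymphatic vessels, was at 78.4 CPM (61.4 to 98.8) in members, 0.693 in other endothelial and 0.441 in other-vessel barcodes. Hoxd9, found by its rank among all genes and not on a list, was at 100 CPM (80.8 to 123) against 0.50, a log2 ratio of 7.65 (7.0 to 8.33). It had no UMI in any other-vessel barcode, which makes it at least 303-fold higher there, from a floor of 3 UMIs over that class. Hoxd10 had a lower level in members, at 15.3 CPM from 12 members, against 0.0577 in other endothelial barcodes. Further along the cluster Hoxd3 had 1 UMI and Hoxd1, Hoxd11, Hoxd12 and Hoxd13 had none in the members, while the antisense gene Hoxd3os1 had 25 UMIs from 20 members. Hoxd8 was found in 38 members and Hoxd9 in 39. Transcripts of this cluster overlap, and the counting rule for overlaps is not given in the sources used here, so reads of Hoxd8, Hoxd9 and their antisense partners may have been shared or dropped. The 250 bases before the RefSeq start of both genes are printed because their levels were low outside the members, with those of Mmrn1, which chose the members, beside them. They come from RefSeq on GRCm38.p6, plus strand, at chr2:74704365-74704614, chr2:74697513-74697762 and chr6:60944067-60944316, and capitals mark a motif match.
Hoxd8: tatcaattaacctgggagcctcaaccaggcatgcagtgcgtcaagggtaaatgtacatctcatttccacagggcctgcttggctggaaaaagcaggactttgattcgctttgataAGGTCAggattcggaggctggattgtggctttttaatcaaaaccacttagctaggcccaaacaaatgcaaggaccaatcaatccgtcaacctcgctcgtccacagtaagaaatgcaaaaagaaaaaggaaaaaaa
Hoxd9: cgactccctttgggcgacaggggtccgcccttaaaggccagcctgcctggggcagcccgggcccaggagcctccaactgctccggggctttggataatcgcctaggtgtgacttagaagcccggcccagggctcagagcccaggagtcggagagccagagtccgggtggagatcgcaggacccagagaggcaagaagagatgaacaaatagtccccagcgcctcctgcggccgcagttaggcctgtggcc
Mmrn1: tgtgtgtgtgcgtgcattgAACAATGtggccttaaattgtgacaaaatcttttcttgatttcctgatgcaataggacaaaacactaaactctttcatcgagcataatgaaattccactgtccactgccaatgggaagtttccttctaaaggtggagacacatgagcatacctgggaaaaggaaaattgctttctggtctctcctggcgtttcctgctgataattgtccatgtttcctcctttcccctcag
Both strands were searched for AGGTCA, the core motif of NR2F and related nuclear receptors, and for AACAATG, a SOX core motif, which do not overlap in these windows. Hoxd8 held 1 match to the former, Mmrn1 1 match to the latter, and Hoxd9 neither. Of 32851 windows of this length before RefSeq starts, 14.0% held AGGTCA and 3.29% AACAATG, so the matches are a description only.

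Along the VEGF-C axis, Flt4 and Nrp2, the receptor and co-receptor for Vegfc, stood near the level of sinusoidal barcodes and above that of other-vessel barcodes. Kdr (VEGFR2) was lower than in sinusoidal barcodes, and Nrp1, a co-receptor of blood vessels, was lower than in both. Flt4 was at 770 CPM (715 to 829) in members, 729 in sinusoidal and 186 in other-vessel barcodes, a log2 ratio of 2.05 (1.92 to 2.18) to the last. Nrp2 was at 438 CPM against 448 and 198. Nrp1 was at 115 CPM (94.6 to 140) against 1128 in sinusoidal and 432 in other-vessel barcodes, and it was found in only 12 members. Kdr was at 509 CPM against 2060 and 497, so it was as low in other vessels as in members. Ptpn14, a phosphatase that limits Flt4 signalling, had the highest ratio among the measured genes of this axis, at 282 CPM against 43.7 in other endothelial and 54.4 in other-vessel barcodes, and was detected in 56 members. Itga9, an integrin of lymphatic valves, was at 188 CPM against 353 in other endothelial barcodes and 169 in other-vessel barcodes. Itgb1 was at 412 CPM against 454 and 539, and Epn1 and Epn2, endocytic adaptors, at 89.3 and 74.1 CPM against 120 and 111 in other endothelial barcodes. Vegfc itself was at 26.1 CPM from 7 members, against 44.0 in other endothelial and 94.5 in other-vessel barcodes. Vegfd had 13 UMIs from 11 members (14.2 CPM against 0.443), below the limit for measured genes. Ccbe1 and Adamts3, which process Vegfc, had no UMI in the members, below 3.27 CPM at the floor of 3 UMIs. With 10 of 13 genes measured, 1 was higher and 2 lower than in other endothelial barcodes, with a median of -0.51, and 3 were higher and 2 lower than in other-vessel barcodes, with a median of 0.09.

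Genes of initial lymphatic capillaries stood far above both comparison classes. Of 16 listed, 15 were in the table and 12 measured against other endothelial barcodes. Among these, 10 were higher and none lower, with a median log2 ratio of 3.50; against other-vessel barcodes 11 of 13 were higher and 1 lower, with a median of 3.25. The 52 members with little RNA of other types gave medians of 3.97 and 3.76. Lyve1 was at 1712 CPM (1628 to 1798) in members, 359 in sinusoidal and 54.5 in other-vessel barcodes, and ran per member from 0 in 13 members to 12515 CPM, with a median of 1225. Reln was at 441 CPM (399 to 486) against 5.47 in other endothelial and 1.77 in other-vessel barcodes, log2 ratios of 6.33 (6.11 to 6.56) and 7.97 (7.25 to 8.79). Il7, a cytokine for lymphocytes that lymphatic endothelium releases, was at 115 CPM against 0.866 and 0.441, from 46 members. These 3 genes thus differed in how widely they were detected as well as in level.
Cp (ceruloplasmin, a copper-binding ferroxidase) was at 1384 CPM against 32.1 in other endothelial barcodes and was detected in 63 members. Since Cp is also a hepatocyte product, its level in the 52 members matters, and it was 1172 CPM. Fxyd6, a regulator of the sodium pump, was at 807 CPM against 26.6, and Thy1, an adhesion glycoprotein also of T cells, at 407 against 31.6, with 487 in T and NK barcodes. Timp3, a metalloproteinase inhibitor, was at 2371 CPM against 1014 and 1399, and at 3136 in the 52 members, over 2-fold above both. Sned1 was at 64.3 CPM against 6.43, and Piezo2, a stretch-activated channel, at 57.7 against 7.57, the latter from 21 members. Ackr2, a scavenger of inflammatory chemokines, was within 2-fold of other endothelial barcodes (67.6 against 39.7 CPM) and at 29.5 in other-vessel barcodes, but at 93.9 CPM in the 52 members, over 2-fold above both. Cd209a was at 13.1 CPM, with 91.7% of its UMIs from 1 member, against 12.2 and 52.8 CPM, and had 1 UMI in the 52 members.

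Ccl21a was spread unevenly over the members. It was at 1896 CPM (1808 to 1987) in their sum, against 29.2 in other endothelial and 0.993 in other-vessel barcodes, log2 ratios of 6.02 (5.92 to 6.12) and 10.90 (9.97 to 12.03). Per member it was at 0 in 34 of 64 and reached 33555 CPM in the highest, which alone gave 21.4% of the UMIs. After thinning, 40.6% of members had a UMI, against 0.684% of sinusoidal barcodes and 0.483% of T and NK barcodes. The Ccl21 genes are near-identical copies. Ccl21b, Ccl21c and their duplicate rows had no UMI, so reads that match several copies may have been dropped and the level of Ccl21a is uncertain.

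Collecting vessel and valve genes showed a partial shift, in which valve genes and connexins were both split. Foxc2, Fn1 and Celsr1 were higher, whereas Itga9, Gata2, Nfatc1 and Efnb2 stayed within 2-fold of both classes over all 64 members. Of 18 listed, 16 were measured against other endothelial barcodes, and 7 were higher and 1 lower, with a median of 0.77; against other-vessel barcodes 7 of 14 were higher and 1 lower, with a median of 1.20. Fn1 (fibronectin, the matrix core of valve leaflets) was at 221 CPM (192 to 254) against 11.7 and 14.6, and was detected in 56 members. Celsr1, a planar polarity cadherin needed for valves, was at 22.9 CPM from 16 members against 0.635 and 1.32. Gja1 (connexin 43) was at 389 CPM against 186 and 109, whereas Gja4 (connexin 37) was lower than in either class, at 126 against 352 and 418. Cd24a was at 222 CPM against 15.1 and 36.3. Bmp4, a growth factor, was at 93.7 CPM from 27 members against 5.77 and 28.7. Cldn11, a claudin described in lymphatic valves, was below the limit for measured genes in its level of 15.3 CPM, from 10 members, and was at 0.0770 in other endothelial barcodes. Neo1 had 2 UMIs from 1 member. Efnb2, a valve and arterial ephrin, was at 145 CPM against 123 and 100, Piezo1 at 93.7 against 76.7 and 87.2, and Vangl2 at 15.3 against 22.2 and 15.8. Adm was at 19.6 CPM against 25.4 and 5.52, and Tgfbr1 at 28.3 against 35.4 and 49.9.

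Genes of chemokine control and leukocyte traffic were mixed. The scavenging receptor Ackr3 and the lipid exporter Spns2 were higher, and the interferon-induced chemokines Cxcl9 and Cxcl10 were lower. Of 27 listed, 19 were measured against other endothelial barcodes, with 9 higher, 3 lower and a median of 0.93; against other-vessel barcodes 11 of 17 were higher and 2 lower, with a median of 1.20. Ackr3, a scavenger of Cxcl12, was at 332 CPM against 64.2 and 128, and Ackr4, a scavenger of Ccl21, at 47.9 against 23.9 and 18.0, with 54.5% of its UMIs from 1 member. Spns2, the exporter of sphingosine 1-phosphate that lymphocytes follow, was at 130 CPM against 56.5 and 49.1. Clca3a1, an adhesion partner for lymphocytes, was at 241 against 77.3 and 46.4, and the alarmin Il33 at 112 against 29.8 and 52.6. S1pr1 (303 CPM against 218) and Icam1 (95.9 against 50.4) stayed within 2-fold of other endothelial barcodes, with Icam1 at 105 CPM in the 52 members, just over 2-fold. Ccl2 and Cxcl1 came from few members, with 41.4% of 58 UMIs and 84.2% of 38 UMIs in 1 member each, and Cxcl1 had no UMI in the 52 members. On the low side, Cxcl10 had no UMI in the members against 36.2 CPM in other endothelial barcodes, at least 11.1-fold lower from a floor of 3 UMIs. Cxcl9 was at 4.36 CPM against 71.3. Ackr1, the chemokine receptor of venules, had 1 UMI, against 55.3 CPM in other endothelial and 16.8 in other-vessel barcodes, a log2 ratio of -5.67 (-10.97 to -3.19) to the former. Ccl5 was at 27.2 CPM, with 80.0% of its UMIs from 1 member.

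Junction genes differed by molecule. Cldn5, the main endothelial claudin, was at 1846 CPM (1759 to 1936) against 713 in other endothelial and 338 in other-vessel barcodes, and was detected in 62 members. The adhesion molecules Jam2 (117 CPM against 716 and 905) and Esam (154 against 558 and 418) were lower, and Jam2 was found in 19 members. F11r (JAM-A) was at 362 CPM against 234 and 253. Of 14 measured junction genes, 4 were higher and 4 lower than in other endothelial barcodes, with a median of 0.31, and 4 were higher and 4 lower than in other-vessel barcodes, with a median of 0.42. Cgn, an epithelial tight-junction gene, counted among the higher ones at 22.9 CPM against 1.21, but its level in the 52 members was 1.65 CPM.

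Matrix genes also differed by molecule. The laminin chain Lamb1, the elastic-fibre genes Eln and Fbln5, Fn1 and Tgfbi were higher, and collagen IV, Hspg2 (perlecan) and Sparc were lower. Lamb1 was at 97.0 CPM against 1.41 in other endothelial and 2.54 in other-vessel barcodes, a log2 ratio of 6.11 (5.65 to 6.58) to the former, from 40 members. Tgfbi, a matrix protein, was at 243 CPM against 18.8 and 35.5, and Eln (elastin) at 158 against 16.1 and 68.5. Timp2 was at 702 CPM against 186 and 167 and was detected in all 64 members. Sparc was at 559 CPM against 2131 and 1604, Hspg2 at 214 against 631 and 458, and Col4a2 at 192 against 399 and 392 (224 in the 52 members, within 2-fold of both). Of 26 measured matrix genes, 11 were higher and 7 lower than in other endothelial barcodes, with a median of 0.69, and 9 were higher and 7 lower than in other-vessel barcodes, with a median of 0.01. The higher and lower genes balanced in the second comparison.

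In the angiopoietin group, the ligand was higher and its receptors were not. Angpt2, which acts on lymphatic growth through Tie2, was at 53.4 CPM from 22 members against 11 in other endothelial and 1.54 in other-vessel barcodes, and Angptl4 at 24.0 against 6.66 and 9.16. Tek (Tie2) was at 218 CPM against 376 and 389, Tie1 at 246 against 358 and 389, and Ephb4 at 231 against 373 and 367, all within 2-fold. Of 7 measured genes, 2 were higher and none lower in either comparison, with medians of 0.24 and 0.31.

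Guidance genes were led by secreted ligands. Ntn1 (netrin 1) was at 285 CPM (252 to 322) against 10.9 and 22.2 and was found in 54 members. Sema3a, a repulsive semaphorin of lymphatic valves, was at 63.2 CPM from 28 members against 1.21 and 1.54, and Sema3d at 169 against 32.2 and 76.9. Plxnd1, Robo1, Robo4 and Ntn4 were lower than in other endothelial barcodes, though Robo4, at 101 CPM against 236, was at 129 and within 2-fold in the 52 members. Plxnd1 was at 174 CPM against 607 and Ntn4 at 61.0 against 232. Of 15 measured, 6 were higher and 4 lower with a median of -0.44; against other-vessel barcodes 6 of 14 were higher and 3 lower with a median of 0.23, so the median changed sign with the comparison.

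The Notch genes held a strong single member, Dtx1, an E3 ligase of the pathway. It was at 234 CPM (204 to 268) in members against 1.94 and 2.98, a log2 ratio of 6.91 (6.57 to 7.27) to other endothelial barcodes, and was detected in 55 members. Hey1, a Notch target, was at 74.1 CPM from 24 members against 4.37 and 12.6. The receptors Notch1 (203 CPM against 361 and 297) and Notch4 (25.1 against 65.0 and 50.2) were not higher. Of 12 measured, 5 were higher and 2 lower in each comparison, with medians of 0.60 and 0.24. In the 52 members the second median was -0.14, with 4 higher. Hes1 was among the higher ones at 862 CPM against 424, and at 588 in the 52 members.

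In the TGF-beta and BMP group the latent binding proteins Ltbp3 (71.9 CPM against 4.23 and 6.84) and Ltbp4 (741 against 178 and 222) were higher. Bmp2, which sinusoidal cells release to control hepatocyte iron handling, was at 78.4 CPM against 1325 in sinusoidal and 288 in other-vessel barcodes, while Bmp4 was higher, as given above. The co-receptor Eng and the inhibitors Smad6 and Smad7 were lower than in other endothelial barcodes, Eng at 585 CPM against 1440. Of 19 measured, 4 were higher and 6 lower with a median of -0.29, and against other-vessel barcodes 3 were higher and 4 lower with a median of 0.20. In the 52 members the counts were 6 and 6, and 3 and 5, with medians of -0.26 and -0.21.

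Among genes of vascular tone and flow, Gucy1b1 was higher and Ednrb lower. Gucy1b1, a subunit of the nitric oxide receptor, was at 123 CPM from 42 members against 31.9 and 22.6. Ednrb, the endothelin receptor B, was at 485 CPM against 1752 and 2846, with a range per member from 0 in 19 members to 2265 CPM. Of 12 measured vasoactive genes, 3 were higher and 4 lower than in other endothelial barcodes and 1 was higher and 4 lower than in other-vessel barcodes, with medians of -0.45 and -0.76; in the 52 members 2 were higher in the latter comparison. Among 9 measured flow genes (of 12 listed, 10 in the table), Piezo2 was the 1 higher gene, with medians of 0.29 and -0.18, and 0.54 and 0.15 in the 52 members. The flow-induced factors Klf2 (1328 CPM against 1294 and 1755) and Klf4 (608 against 406 and 690) stayed within 2-fold, and Heg1, a junctional receptor, was at 215 CPM against 378 and 519.

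Blood vessel genes were lower as a group. Sox17, an arterial factor, was at 18.5 CPM (10.8 to 29.7) against 172 in other endothelial and 237 in other-vessel barcodes, from 9 members. Vwf, the platelet-binding factor of larger vessels, was at 73.0 CPM, also from 9 members, against 153 and 492. Flt1 was at 119 CPM against 611 and 612, Ly6c1 at 41.4 against 251 and 451, and Plac8 at 44.7 against 168 and 421. Hey1, Rspo3 and Bmx, a tyrosine kinase of arterial endothelium, went the other way relative to other endothelial barcodes. Rspo3 was at 127 CPM (110 in the 52 members) against 49.0 and 242, and Bmx was at 59.9 CPM from 30 members against 2.75 and 11. Plvap, a diaphragm protein of fenestrae and caveolae, was at 632 CPM against 390 and 704. Of 23 measured, 3 were higher and 12 lower with a median of -1.06, and of 22 measured against other-vessel barcodes 3 were higher and 15 lower with a median of -1.58.

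The sinusoidal genes outside the rule were lower too. The sinusoidal limit of the rule bears on the comparison with all other endothelial barcodes, most of which are sinusoidal. Of 17 measured, 1 (Lyve1) was higher and 14 lower, with a median of -2.80. The other-vessel barcodes were under the same limit, and against them 9 were lower and 2 higher (Lyve1 and Flt4), with a median of -1.30. Fcgr2b, an Fc receptor of sinusoidal cells, was at 181 CPM (97.2 in the 52 members) against 2361 in sinusoidal and 470 in other-vessel barcodes, Oit3 at 42.5 against 693 and 147, and Gata4, a factor of sinusoidal identity, at 34.9 (14.8 in the 52) against 249 and 210. Tfec, a transcription factor, had 1 UMI, against 45.4 CPM in other endothelial and 34.0 in other-vessel barcodes.

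Antigen presentation separated into 2 parts. Class I genes stood at like levels, with none of 10 measured higher or lower than in other endothelial barcodes (median -0.19) and 1 lower than in other-vessel barcodes (median -0.20); B2m was at 1179 CPM against 1685 and 1416, and H2-Q7 at 156 against 109 and 171. Class II genes were lower. Of 6 measured, 3 were lower and none higher than in other endothelial barcodes, with a median of -1.03, and all 7 were lower than in other-vessel barcodes, with a median of -2.86. In the 52 members all 6 and all 7 were lower, with medians of -2.86 and -4.68. Cd74, the invariant chain, was at 373 CPM against 799 and 2756, with 76.0% of its UMIs from 1 member, and at 97.2 CPM in the 52 members. H2-Ab1 was at 119 CPM against 253 and 888, and at 39.5 in the 52. Other-vessel barcodes also carried dendritic cell transcripts (0.0386% of UMIs against 0.00185% in members), and their part in the class II difference was not tested. Interferon-stimulated genes gave 2 higher and 2 lower of 15 in each comparison, with medians of -0.33 and -0.18; in the 52 members 5 and 3 were lower. Rsad2 was at 13.1 CPM against 139 and Ifit2 at 24.0 against 70.4, while Isg15 was at 216 against 88.2.

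Immediate-early genes, which respond within minutes to stimulation and to tissue dissociation, were high in members. Of 14 measured, 13 were higher and none lower than in other endothelial barcodes, with a median of 2.11, and 11 were higher than in other-vessel barcodes, with a median of 1.52. Egr1 was at 1603 CPM against 181 and 332, and Btg2, an antiproliferative gene, at 1544 against 158 and 282, with UMIs in 62 members. Fos was at 1992 CPM against 293 and 455 and Junb at 2283 against 317 and 479. Atf3 was at 273 CPM against 23.4 and 53.4, and at 127 in the 52 members. All classes came from the same library, and the part of handling in these levels was not tested.

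The cytoskeletal and calcium-binding genes were high as well. S100a6 was at 1110 CPM (1043 to 1181) against 76.7 and 254, from 63 members, S100a11 at 892 against 143 and 266, from all 64, and Vim (vimentin) at 3682 against 701 and 1235. Of 11 measured, 6 were higher and 1 lower than in other endothelial barcodes, with a median of 1.20, and 4 were higher and 1 lower than in other-vessel barcodes, with a median of 0.70. The exception was S100a4, at 13.1 CPM against 27.2, with 730 in T and NK barcodes.

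Caveolar genes led the lipid-handling list and fatty acid receptors were low. Cav1, the coat protein of caveolae, was at 668 CPM (616 to 723) against 47.1 and 84.5 and was detected in 61 members, with a median of 772 CPM per member. Cavin2 was at 1638 CPM against 655 and 685, Cavin1 at 314 against 141 and 196 (394 in the 52 members, over 2-fold above both), and Lpl at 104 against 20.1 and 21.1. Cd36, a fatty acid transporter, was at 168 CPM against 1160 and 413, and Fabp5 at 195 (93.9 in the 52) against 528 and 458. All 18 were measured, with 5 higher and 4 lower than in other endothelial barcodes and a median of 0.80, and 5 higher and 3 lower than in other-vessel barcodes with a median of 0.50. These medians depended on the 12 members with RNA of other types, and were -0.03 and -0.56 in the 52. Apoe illustrates this, at 3500 CPM in all members, 1488 in the 52 and 3285 in other endothelial barcodes.

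Insulin-like growth factor binding proteins included the most abundant of the genes named here. Igfbp5 was at 5729 CPM (5575 to 5886) against 319 and 1055, from 52 members, with a range per member of 0 to 36560 CPM and a median of 2733. Igfbp3 was at 94.8 CPM from 23 members against 7.87 and 33.5, and Igfbp7 was lower, at 626 against 4085 and 1674. Of 5 measured, 3 were higher and 1 lower in each comparison, with medians of 2.10 and 1.20, but 0.88 and -0.01 in the 52 members. Igf1, also a hepatocyte product, was at 119 CPM in all members and 51.1 in the 52.

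In the complement and coagulation list, genes differed in whether the 52 members kept the difference. Plat (tissue plasminogen activator) was at 155 CPM from 28 members against 10.3 and 32.8, and 188 in the 52 members. Clu (clusterin) was at 3349 CPM against 312 and 539, but at 405 in the 52 members, and C3 at 378 and 89.0. Of 12 measured, 6 were higher and 4 lower with a median of 0.69, and of 11 against other-vessel barcodes 6 were higher and 2 lower with a median of 1.69; in the 52 the medians were -0.27 and -0.41, with 3 higher in each. The cell-cycle list made up 0.133% of UMIs in members, 0.175% in other endothelial and 0.173% in other-vessel barcodes. Mki67 had 1 UMI and Top2a 2 UMIs in the 64 members, and none of 7 measured genes was higher or lower than in other endothelial barcodes (median -0.22), with 0 higher and 2 lower of 9 against other-vessel barcodes (median -0.50). In the 52 members 1 was lower than in other endothelial and 4 than in other-vessel barcodes. Ccnd2 was at 245 CPM, and 155 in the 52, against 489 and 391, and Cdkn1c at 40.3 against 73.1.

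**Figure D4:**
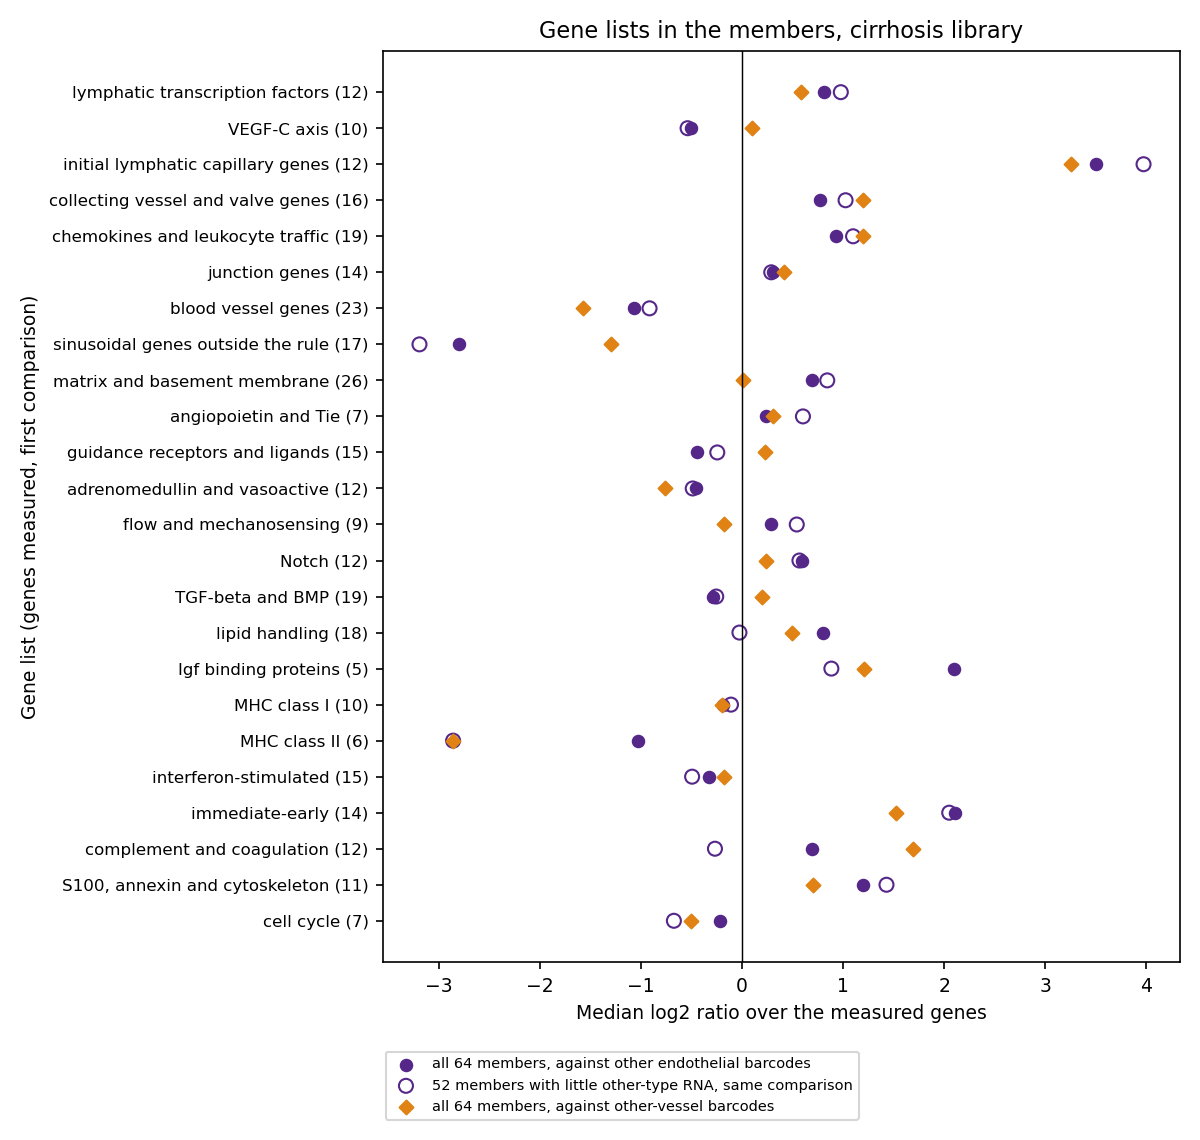
Median log2 ratio over the measured genes of each of 24 lists: all 64 members against other endothelial barcodes (filled circles), the 52 members with little RNA of other types in the same comparison (open circles), and all 64 against other-vessel barcodes (diamonds). Capillary genes stand furthest to the right, sinusoidal genes furthest to the left for the circles, and lipid, Igf and complement lists are those where filled and open circles lie far apart on the right.

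Over all genes, the highest ratios to other endothelial barcodes outside the rule belonged to Il7 and to 11 genes that no list held, Hoxd9 among them. Ptn (pleiotrophin, a secreted growth factor) led with 171 CPM against 0.212, a log2 ratio of 9.66 (8.78 to 10.69), but it came from 14 members, with 38.9% of UMIs from 1 of them. Comp, a matrix protein, was at 122 CPM from 28 members against 0.616, Rgs16, a regulator of G-protein signalling, at 115 from 27 against 0.674, Gap43, a growth-cone protein, at 58.8 from 20 against 0.346, and Nov (CCN3), a matricellular protein, at 71.9 from 29 against 0.443. More members shared Htr2b (serotonin receptor 2B), at 129 CPM from 35 against 0.674, and Tmod2, an actin-capping tropomodulin, at 111 from 41 against 0.654. Tppp3, a tubulin-binding protein, was at 532 CPM from 44 members against 3.85, Ahnak2 at 182 from 52 against 1.42, and Sh3gl3, an endophilin, at 51.2 from 32 against 0.327. Breadth and rank thus differed, Ahnak2 being the most widely detected of these genes.
Against other-vessel barcodes the leading genes were again Hoxd9, Ccl21a, Ptn, Tbx1, Comp, Htr2b and Gap43, with Gap43 at no UMI in that class and at least 178-fold higher, and Postn (periostin), at 133 CPM from 27 members against 0.221. Both comparisons share the members, so these are not independent.

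The lowest genes against other endothelial barcodes were mostly higher in sinusoidal than in other-vessel barcodes. Cnmd had 1 UMI in the members and Cnr2 (cannabinoid receptor 2) 2 UMIs, against 57.6 and 51.6 CPM. Twist1, a transcription factor, had 3 UMIs (77.0 CPM in other endothelial barcodes), Il13ra2, a decoy receptor for interleukin 13, 4 (93.0), Serpina3f, a protease inhibitor, 3 (60.8), and Rasd1 6 (113). Ackr1, given above, was also among them. Siglech, a lectin of plasmacytoid dendritic cells, had no UMI against 50.5 CPM, at least 15.4-fold lower. Against other-vessel barcodes Siglech, Cd7, Cox6a2, Klk1 and Runx2 had no UMI and Rnase6 1 UMI in the members, against 173, 76.6, 86.7, 76.0, 52.4 and 112 CPM. Siglech was detected in 55 and Rnase6 in 103 of those 673 barcodes, so this end of the ranking came from a minority of the comparison class.

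Within the members, the presence of Ccl21a went with more of other capillary genes and of several lymphatic genes outside that list. This split was chosen after the values had been seen, and it is a description of barcodes from 1 library. It parts members with 0 UMIs of Ccl21a from those with 1 to 373, and several of the latter had only 1. Of the 52 members with little RNA of other types, 27 had a Ccl21a UMI and 25 had none, at median depths of 9587 and 9952 UMIs. The deepest member had 14986 UMIs among the former and 32677 among the latter, and deep members weigh more in the sums. Lyve1 was at 4126 CPM in the former and 1115 in the latter, a log2 ratio of 1.89 (1.72 to 2.06), and was detected in 26 of 27 against 17 of 25. Reln was at 1041 and 307 CPM, Ackr2 at 163 and 45.1, Piezo2 at 143 and 39.4, and Flt4 at 1402 and 752. Outside the capillary list, Mmrn1 was at 4242 and 2510 CPM, Pdpn at 222 and 98.6, and Nrp2 at 782 and 400. Dtx1 was at 429 and 239 CPM and Nr2f2 at 866 and 648. For Prox1 (492 and 389) and Sox18 (330 and 287) the counting intervals of the ratio included 0. Such intervals hold no spread between members, so they cannot settle which genes differ between the 2 sets. The 25 without Ccl21a held the 1 member without Mmrn1, which had 13 UMIs of Krt18 and 7 of Epcam. The guidance gene Sema3a (151 and 45.1 CPM) also went with Ccl21a, in 18 of 27 members against 8 of 25. Gap43, which is on no list, was at 143 and 33.8 CPM, in 12 of 27 members against 6 of 25, with 41.7% of its UMIs in the former from 1 member, without which its level there was 87.3 CPM. In the counts of this split any log2 ratio above or below 0 was taken, not a 2-fold difference. Of the 11 measured capillary genes other than Ccl21a, 10 were above 0 with Ccl21a, with a median of 0.72. Only Lyve1, Reln, Piezo2 and Ackr2 among them passed 2-fold. Of 16 collecting and valve genes 7 were above 0 and 9 below, with a median of -0.04. Of all 7265 genes 3650 were above 0 and 3615 below, with a median of 0.00470.
Members without Ccl21a had more Bmp4 (200 against 27.8 CPM, in 18 of 25 members against 5 of 27) and more Hey1 (138 against 51.6, in 15 against 7). Their higher Nrp1 (135 against 31.8 CPM) and Jam2 (138 against 35.7) came from 5 and 7 members, and their higher Ptn (231 against 79.4) from 6. For Ptn 74.4% of these UMIs came from 1 member, without which its level was 62.1 CPM, below that with Ccl21a. The 31.8 CPM of Nrp1 with Ccl21a came from 1 member alone, and 55.6% of the Jam2 UMIs there from 1. Clu stood at 648 against 63.5 CPM, with 73.9% of the UMIs without Ccl21a from 1 member and 184 CPM without it. Several sinusoidal genes were also higher without Ccl21a, each from 10 or fewer of the 25 members. Dnase1l3 was at 166 against 43.7 CPM, Stab2 at 155 against 59.6, Fcgr2b at 146 against 27.8 and Bmp2 at 92.9 against 15.9. Stab1 (1008 against 1330), Lyve1 and Flt4, also sinusoidal, went the other way. The part of sinusoidal RNA in the differences of this split, Nrp1 and Jam2 included, was not tested. Tbx1 (266 with and 231 without), Hoxd8 (111 and 92.9), Hoxd9 (155 and 118), Cp (1263 and 1107), Cav1 (786 and 932) and Foxc2 (95.3 and 141) had log2 ratios whose counting intervals included 0. Igfbp5 was at 6970 and 7841 CPM.

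**Figure D5:**
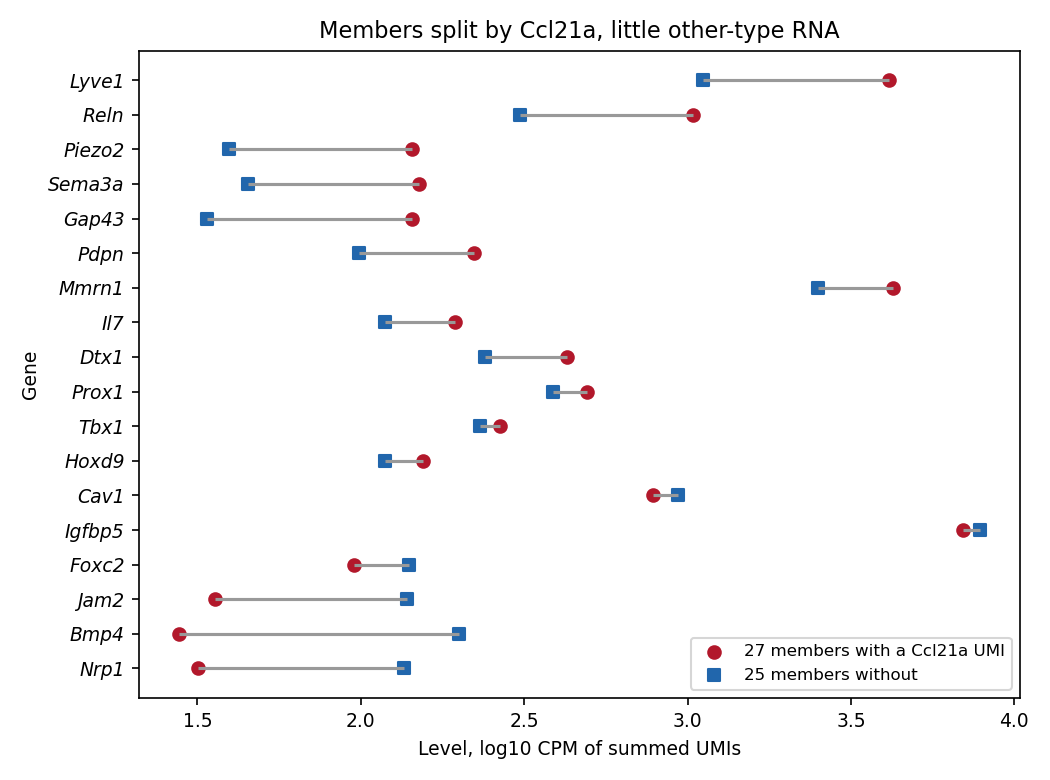
Level (log10 CPM of summed UMIs) of 18 genes in the 27 members with a Ccl21a UMI (circles) and the 25 without (squares), among the 52 members with little RNA of other types. Lyve1, Reln, Piezo2, Sema3a and Gap43 are to the right with Ccl21a, and Bmp4, Jam2 and Nrp1 are to the left.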

How the data were processed

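The authors deposited raw UMI counts per gene and barcode, 1 table for each library, with Cell Ranger and the mm10 build named per the submitters' processing notes; neither their versions nor a filter on barcodes are recorded in those notes, and no barcode had under 500 UMIs. Of 31057 gene symbols, 30464 were found in the GRCm38 annotation. The members and gene lists were chosen with earlier results of these data known. From each list the 4 (lymphatic, vessel, traffic, junction and matrix lists) or 2 (other lists) genes with the largest ratio to other endothelial barcodes were named, and over all genes from 50 CPM the 12 highest (with a UMI in at least 20% of members) and 8 lowest against other endothelial barcodes and the 8 highest and 6 lowest against other-vessel barcodes; other names were chosen after their values were seen, and some genes of the lists are not reported here. UMIs were summed per class and divided by the class total (CPM). Intervals are exact Poisson for levels, exact conditional for ratios and Clopper-Pearson for shares, at 95%. Only the ratio intervals were tried on simulated counts, which were Poisson draws from the mean of other endothelial barcodes. Such counts hold no spread between barcodes, so the trial cannot show how the intervals do where 1 member gives many of the UMIs. A UMI count of 0 was given a floor of 3 UMIs over the class. Comparison barcodes had at most 5% of erythroid UMIs. Doublets were left in, and simulated-doublet scores served only as an alternative, with 470 cirrhosis and 214 control barcodes left out, 5 of 64 and 1 of 4 members among them. Python 3.11.15, numpy 2.4.6, scipy 1.17.1, pandas 2.3.3, scikit-learn 1.9.0 and matplotlib 3.10.9 were used.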

Additional observations from a re-analysis of the deposited data

How the results depend on the processing

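Each library was a single pool, so no value has a replicate check, and depth limits genes below about 20 CPM in the 64 members. No paired analysis was possible because the labels carry no replicate numbers and each group has 1 library. With all 3 lymphatic genes required, the members numbered 41 in cirrhosis (0.754% of endothelial barcodes) and 1 in control (0.0227%). With sinusoidal genes under 0.2%, they made up 0.901% in cirrhosis and numbered 2 in control, and with at most 0.5% of other types' markers 2 in control. At 20 CPM, 1019 genes were higher and 910 lower than in other endothelial barcodes, and 887 and 828 against other-vessel barcodes; at 100 CPM these counts were 328, 333, 309 and 234. Of 1511 alternative log2 ratios to other endothelial barcodes 475 left the counting interval and none of the ratios from 2-fold changed sign; of 1415 to other-vessel barcodes 393 left it and 3 changed sign. With all 3 lymphatic genes required, Cgn (-0.42) and the median of the Igf list (-0.059) changed sign against other-vessel barcodes; the cause was not tested. In the 52 members with little RNA of other types, set beside the same comparison barcodes, Cgn (-0.68), Clu (-0.41) and the medians of the Igf (-0.012) and complement lists (-0.41) did so, and list medians under 2-fold turned for lipid handling (-0.56), Notch (-0.14), TGF-beta (-0.21) and flow genes (0.15), and against other endothelial barcodes for lipid handling (-0.03) and complement (-0.27). Scaling by the median of ratios shifted all log2 ratios by -0.061 and -0.066. Leaving out comparison barcodes that met the lymphatic gate, or those under 20 endothelial UMIs, and setting the 52 members beside the full comparison barcodes were chosen after seeing the data. For genes with no UMI in a class, the mean over barcodes gave no ratio, and in thinned barcodes Cd7, Cox6a2, Runx2, Cnr2 and Serpina3f gave no usable bound.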
